A study of Caenorhabditis elegans with 2 samples.

Results

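The genes described here were 10 timing genes of the nematode Caenorhabditis elegans: the microRNA genes let-7, mir-48, mir-84, mir-241 and lin-4, and the protein-coding genes puf-9, hbl-1, lin-41, lin-14 and lin-28. They were 10 of the 44759 genes annotated on the nuclear chromosomes, 5 of 260 microRNA genes and 5 of 19971 protein-coding genes. For each gene, all regions that overlapped the gene and 2000 bp on either side, or 5000 bp upstream for a microRNA gene, were taken from lists of chromatin immunoprecipitation sequencing (ChIP-seq) regions for the nuclear hormone receptor NHR-28. The genes were chosen by the rank, signal and position of these regions, so those values are a description and no test was made on them.

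The study comprised a single group of 2 biological replicates of whole L3 larvae of mixed sex. All worms were of strain OP317, which carries the mutation unc-119(ed3) on chromosome III and the transgene wgIs317 encoding NHR-28 tagged with eGFP, an enhanced green fluorescent protein. The labels give nhr-28 under antibody and do not say which promoter drives the transgene. No untagged strain and no input library was analysed here, so region strength could not be set against a control. The lists came from whole animals, in which strong binding in few cells and weak binding in many cells cannot be told apart. The deposited lists were one per replicate with 30000 regions each, a pooled list of 20876 regions and a final set of 162 peaks that passed the authors' irreproducible discovery rate (IDR). The lists other than the final set held background by construction, and the pooled q values reached 0.961. Each region carries one signal value set by the authors on an unstated scale, so signals and ranks are compared only within a list. Rank 1 is the highest signal. The lists give no read counts, and the depth of each library is therefore unknown.

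Heterochronic genes set the order in which cells of the larva adopt stage-specific fates. In this pathway the microRNA lin-4 represses lin-14 and lin-28 early in larval life, and the let-7 family members mir-48, mir-84 and mir-241 together repress hbl-1 at the passage into the third larval stage. The let-7 microRNA acts later, and represses lin-41 at the change from larva to adult. MicroRNAs find their targets mainly through the seed, bases 2 to 8 of the mature strand, which pairs with matches in the 3′ untranslated region (UTR) of the target.

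The mature strands are shown because they define the let-7 family and its targets. Capitals mark the seed, and sequences are from the RefSeq annotation of WBcel235, the assembly also called ce11. The 5 sequences are grouped by seed.
let-7: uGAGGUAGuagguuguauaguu
mir-84: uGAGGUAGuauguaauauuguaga
mir-48: uGAGGUAGgcucaguagaugcga
mir-241: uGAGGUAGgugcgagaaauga
lin-4: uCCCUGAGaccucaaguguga
The first 4 share the seed GAGGUAG, and lin-4 has the seed CCCUGAG. Position by position, let-7 and mir-84 were identical at 17 of 22 bases, and mir-48 and mir-241 at 14 of 21. By contrast let-7 and mir-48 shared 9 of 22 bases, of which 1 of 14 lay after the seed. The closest pair in the genome was mir-48 and mir-241, which lie 1678 bp apart on the minus strand of chromosome V.

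Of the 10 genes, 3 had a final peak in their window, and these 3 shared 2 peaks. The stronger peak lay between dct-11 and puf-9, and the other lay between mir-241 and mir-48. The peak between the microRNAs counted for both genes. The bases of these peaks and of the strongest pooled region near let-7 are shown because they carry the strongest signal beside puf-9 and the let-7 family. Each is the central 300 bases on the strand of the gene, 5′ to 3′, and capitals mark the motif GAGAGA and the nuclear receptor core AGGTCA, on either strand.
puf-9, chrX:5841148-5841447, plus strand: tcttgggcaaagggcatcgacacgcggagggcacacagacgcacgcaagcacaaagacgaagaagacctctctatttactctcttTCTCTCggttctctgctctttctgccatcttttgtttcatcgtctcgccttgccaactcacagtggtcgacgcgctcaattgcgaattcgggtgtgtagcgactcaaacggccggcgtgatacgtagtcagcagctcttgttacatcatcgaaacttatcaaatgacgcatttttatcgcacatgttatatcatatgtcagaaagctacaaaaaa
mir-241 and mir-48, chrV:14365813-14366112, minus strand: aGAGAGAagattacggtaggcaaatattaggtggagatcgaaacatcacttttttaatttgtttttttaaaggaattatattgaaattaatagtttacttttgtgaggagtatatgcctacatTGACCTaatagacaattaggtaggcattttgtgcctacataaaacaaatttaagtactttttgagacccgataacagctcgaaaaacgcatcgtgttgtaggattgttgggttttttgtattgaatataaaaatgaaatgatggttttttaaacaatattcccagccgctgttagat
let-7, chrX:14743841-14744140, minus strand: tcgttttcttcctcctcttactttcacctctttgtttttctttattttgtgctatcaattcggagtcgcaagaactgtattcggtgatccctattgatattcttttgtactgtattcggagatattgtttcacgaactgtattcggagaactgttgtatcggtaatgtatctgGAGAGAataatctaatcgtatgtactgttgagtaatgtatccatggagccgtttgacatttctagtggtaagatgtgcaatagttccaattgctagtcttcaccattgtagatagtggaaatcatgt
The puf-9 bases held 1 GAGAGA, read as TCTCTC from base 86. The bases between mir-241 and mir-48 held AGGTCA once, read as TGACCT from base 124, and GAGAGA from base 2. The let-7 bases held GAGAGA once, from base 174.

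Their base composition differed. The puf-9 peak had a GC content of 47.3%, the peak between mir-241 and mir-48 of 31.3%, and the let-7 region of 37.0%. The median was 33.3% over all pooled regions and 38.0% over the final peaks, with an interquartile range of 34% to 42.7% for the final peaks. The puf-9 peak therefore lay above the upper quartile of the final peaks and the microRNA peak below their lower quartile.

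The motif search covered the strongest pooled region of each gene, which made 9 distinct regions. AGGTCA was in 1 of the 9, against 7.01% of all pooled regions. AGTTCA was in 1, near lin-41, against 19.0%, and AGTGCA was in none, against 9.82%. CTGCGTCTC was in none, against 1.78% of all pooled regions and 11.1% of the final peaks. GAGAGA was in 4 of the 9, against 15.9% of all pooled regions and 35.2% of the final peaks. Both strands were searched over 300 bases each, and occurrences were not compared by a test.

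The 5′ flank of puf-9 carried the strongest region near any of the 10 genes. PUF-9 is an RNA-binding protein of the Pumilio family that takes part in the repression of hbl-1. The final peak spanned chrX:5841128-5841467, and the gene, WBGene00004245, spans chrX:5841592-5845987 on the plus strand. The summit lay 294 bp upstream of the start of puf-9 and 1520 bp upstream of dct-11, a divergent protein-coding gene whose window shared the peak. It was also inside 2 short non-coding RNA genes of opposite strands, W06B11.7 at chrX:5841170-5841350 and W06B11.9 at chrX:5841185-5841361, so the peak cannot be given to puf-9 alone. Its signal was 81.6 in the pooled list, 25.3 in replicate 1 and 55.7 in replicate 2. It ranked 19 in the pooled list, 38 in replicate 1 and 16 in replicate 2, so it stood among the strongest regions of every list. The replicate summits lay 47 bp and 2 bp from the pooled summit.

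Of all protein-coding genes, the share with a better best pooled rank than puf-9 was 0.17%. The genes next to it in this order were F20B6.9 and hpk-1, which shared the region of rank 18 with a signal of 82.7, and rpl-35 and tag-307, which shared the region of rank 20 with a signal of 77.7. Inside puf-9 the replicates differed. A region in a coding exon ranked 333 in replicate 2, with a signal of 19.6, while the pooled region there ranked 6691 and replicate 1 had no region over it.

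The peak between mir-241 and mir-48 spanned chrV:14365793-14366132, and overlapped no annotated gene. The mir-241 gene, WBGene00003335, spans chrV:14366188-14366283, and mir-48, WBGene00003039, spans chrV:14364412-14364509, both on the minus strand. The peak's signal was 42.7 in the pooled list, 14.96 in replicate 1 and 24.1 in replicate 2. It ranked 73 in the pooled list, 166 in replicate 1 and 134 in replicate 2, which placed it lower than the puf-9 peak in each list. The q values were 0.00592 in the pooled list, 0.0351 in replicate 1 and 0.0112 in replicate 2. In replicate 1, 16 regions of the list were mitochondrial, and without them the rank was 151.

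The summit lay 320 bp downstream of the 5′ end of mir-241, which is 225 bp past the 3′ end of its hairpin. The pooled region stopped 55 bp short of the hairpin, and the replicate 1 region overlapped it by 35 bp. With respect to mir-48 the summit lay 1454 bp upstream, so the peak was downstream of one sister and upstream of the other. The replicate summits lay 85 bp and 3 bp from the pooled summit. The microRNA gene next above mir-241 by best pooled rank was mir-52, at rank 59 with a signal of 46.3. Next below were mir-1819 and mir-2212, which shared the region of rank 123 with a signal of 36.1.

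The windows of mir-241 and mir-48 held further regions that differed between the replicates. Replicate 1 had a region of rank 233 with a signal of 13.9, placed 966 bp downstream of the start of mir-241, which replicate 2 did not share. Replicate 2 had a region of rank 367 with a signal of 19.2, placed 1059 bp upstream of mir-241, which replicate 1 did not share. A pooled region of rank 3428 covered the whole 98 bp hairpin of mir-48, and ranked 5201 in replicate 1 and 13484 in replicate 2. Counted over their windows, mir-48 had 12.7 and mir-241 9.86 pooled regions per 10 kb, against 2.84 over all microRNA genes. The windows overlap, and joined they held 9 distinct regions, or 10.1 per 10 kb. The value over all microRNA genes was not joined in this way, so it is not a like comparison for the joined value.

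**Figure D1:**
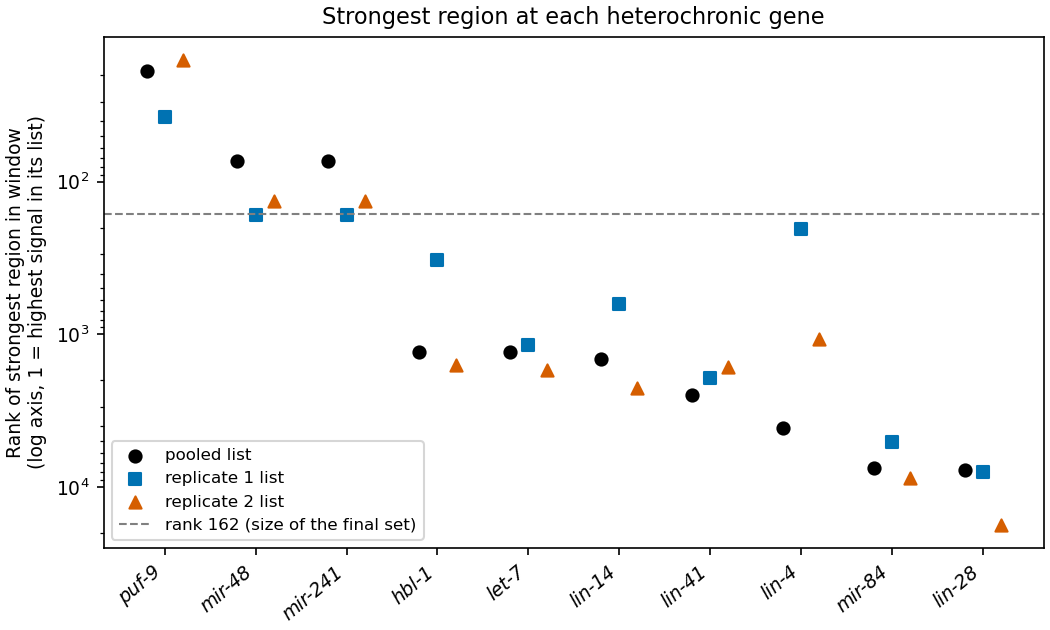
Best rank of a region in the window of each gene (log axis, rank 1 at the top) in the pooled list and in the lists of replicate 1 and replicate 2; the dashed line marks rank 162, the size of the final set. The gene puf-9 is at ranks 19, 38 and 16, and mir-48 and mir-241, which share a peak, are at 73, 166 and 134. The lowest best ranks are those of lin-28.

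The let-7 gene itself had no final peak. It is annotated as WBGene00002285 at chrX:14743590-14745321 on the minus strand, with a hairpin of 99 bases inside the longer transcript. The best rank was 1312 in the pooled list, 1179 in replicate 1 and 1711 in replicate 2, at 3 different summits. The pooled region began 12 bp past the 3′ end of the hairpin, had a signal of 20.3 and a q value of 0.390, and overlapped 2 replicate 1 regions. Of these, the one with the nearer summit ranked 11448 with a signal of 5.89, and the other ranked 3689 with a signal of 8.11. The pooled summit was 211 bp upstream of C05G5.7, a short protein-coding gene annotated within let-7. The replicate 2 region overlapped the hairpin by 50 bp. The strongest replicate 1 region lay instead 1807 bp upstream of the gene start, with a signal of 10.3, where the pooled region ranked 11800 and replicate 2 had none. The replicates thus placed their strongest let-7 signal on opposite sides of the gene start.

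The fourth let-7 sister, mir-84, lies at chrX:16022404-16022478 on the minus strand. Its best ranks were 7466 in the pooled list, 5038 in replicate 1 and 8721 in replicate 2, and its pooled signal was 14.3. Of all 260 microRNA genes 48.1% ranked better, so mir-84 stood near the middle. The let-7 family was therefore not uniform, with mir-48 and mir-241 at rank 73, let-7 at 1312 and mir-84 at 7466 in the pooled list.

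The microRNA gene lin-4, WBGene00002993, lies at chrII:5902254-5902347 on the plus strand, inside an intron of F59G1.4. The best rank was 4107 in the pooled list, 204 in replicate 1 and 1075 in replicate 2. The pooled region also overlapped F59G1.11, a non-coding RNA gene. The replicate 1 region had a signal of 14.3 and covered all 94 bases of the hairpin, and neither replicate 2 nor the pooled list had a region there. The replicate 2 region, with a signal of 15.9, had its summit 595 bp downstream of the gene start. A pooled region of rank 1369 with a signal of 20.1 lay 1804 bp beyond the downstream edge of the window and was not counted. Thus the region over the lin-4 hairpin was seen in 1 library.

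**Figure D2:**
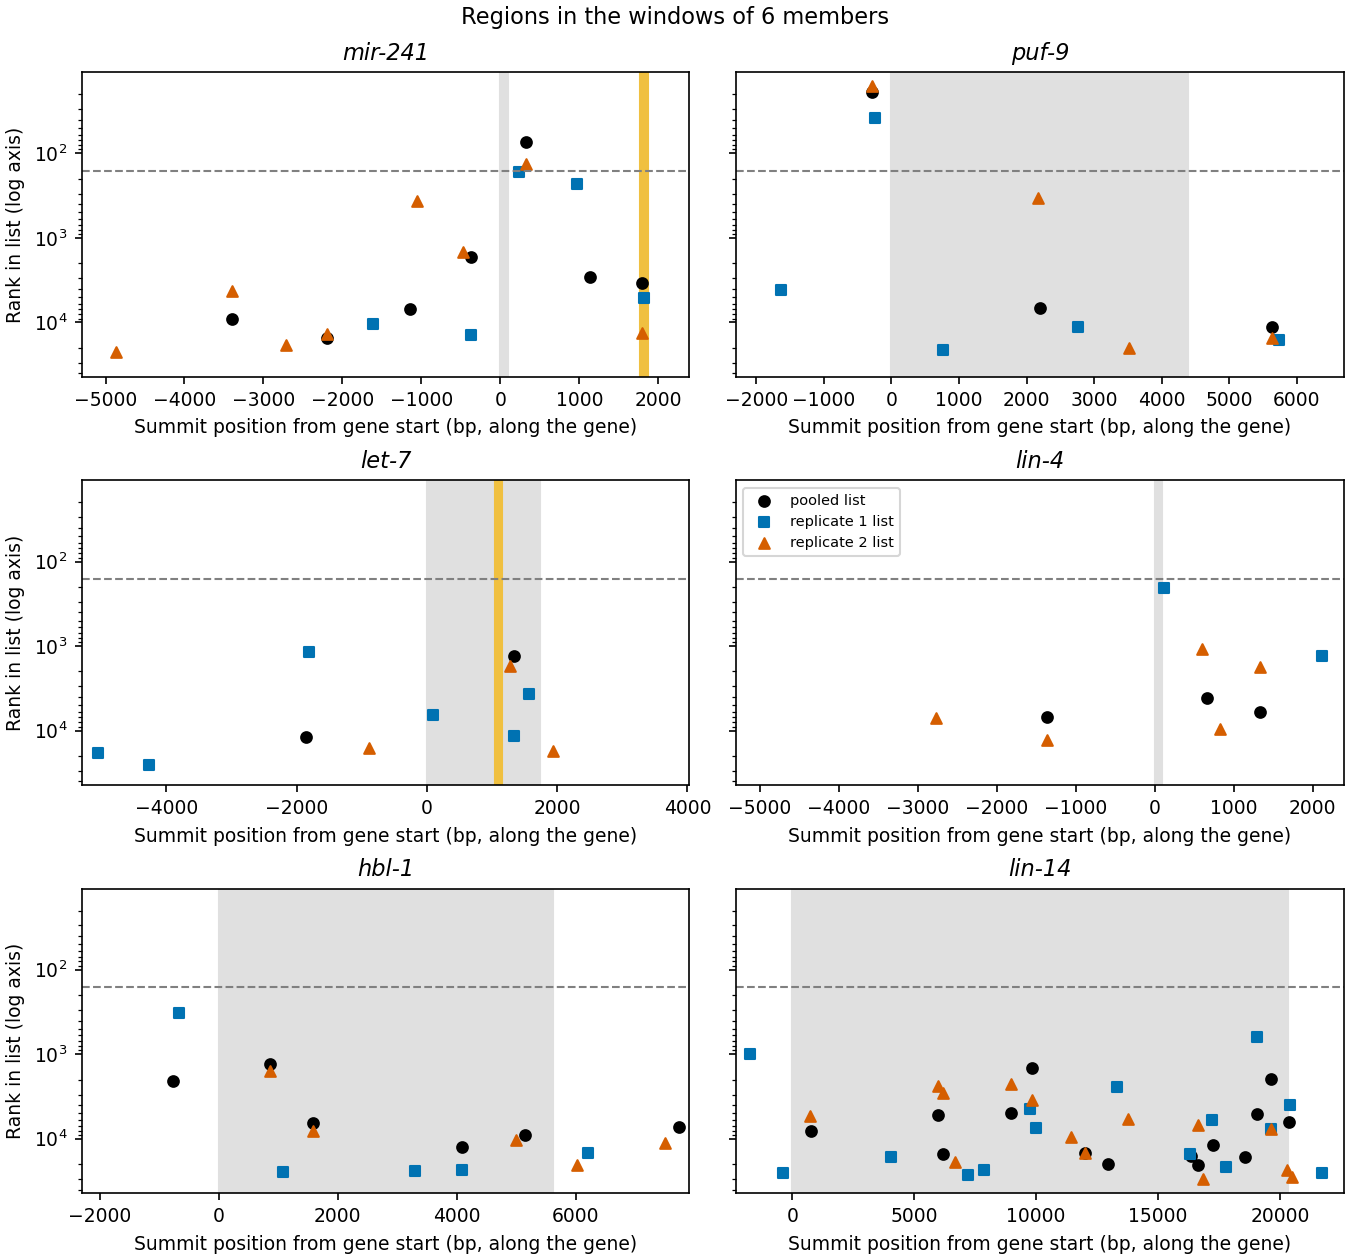
Each panel shows one gene, with summit position from the gene start along the gene (bp, linear axis) against rank in the list (log axis, strong at the top); circles are the pooled list, squares replicate 1 and triangles replicate 2. Grey marks the gene, the yellow bands mark mir-48 in the panel of mir-241 and the hairpin in the panel of let-7, and the dashed line marks rank 162. The 3 lists meet at the peaks of puf-9 and mir-241, and they are spread apart at lin-4 and upstream of hbl-1.

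The target genes of these microRNAs ranked below puf-9. HBL-1 is a zinc-finger transcription factor related to Hunchback of the fly. The gene, WBGene00001824, spans chrX:5822142-5827755 on the plus strand, 13836 bp from puf-9. Its best rank was 1309 in the pooled list, 324 in replicate 1 and 1581 in replicate 2. The pooled region lay in an intron 862 bp downstream of the start with a signal of 20.3, and replicate 2 had its best region at the same place with a signal of 14.9. The replicate 1 region that overlapped it ranked 24894 with a signal of 4.21, and its summit lay 221 bp from the pooled summit. Replicate 1 had its best region 660 bp upstream with a signal of 13.0, where the pooled region ranked 2094 and replicate 2 had none. A region of rank 878 lay 1018 bp beyond the downstream edge of the window and was not counted.

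LIN-14 is a nuclear protein that sets the fates of early larval stages. Its gene, WBGene00003003, spans chrX:11465560-11485871 on the plus strand, and its window of 24312 bp was the longest of the 10 and held 14 pooled regions. The best rank was 1449 in the pooled list, 632 in replicate 1 and 2258 in replicate 2. The best replicate 1 region lay in the 3′ UTR with a signal of 11.5, and the best replicate 2 region lay in an intron with a signal of 14.0. The pooled region, with a signal of 19.9 and a summit 9816 bp downstream of the start, was matched in replicate 1 at rank 4423 and in replicate 2 at rank 3483.

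The 3′ UTR regions of lin-14 lay over matches to both seeds. The let-7 match searched was CTACCTC, the 7 letters that pair with the seed. The lin-4 match searched was CTCAGGGA, 8 letters, which adds the base opposite position 1 and is therefore stricter. Both were searched on the sense strand. A pooled region at chrX:11485001-11485340, of rank 1942 and a signal of 18.9, ranked 7651 in replicate 1 and 7676 in replicate 2, and it covered 2 matches of each kind. These sites are shown with the match in capitals, and the first let-7 match shares bases with the lin-4 match that follows it.
lin-4 match, chrX:11485078-11485107: ttacactctcttttaatccaaCTCAGGGAa
let-7 match, chrX:11485121-11485150: tcattgaactcaggaatttcttCTACCTCa
lin-4 match, chrX:11485126-11485155: gaactcaggaatttcttctacCTCAGGGAa
let-7 match, chrX:11485135-11485164: aatttcttctacctcagggaacCTACCTCa
Over all annotated 3′ UTRs, 148 of 16785, or 0.882%, held the let-7 match and 16, or 0.0953%, held the lin-4 match of 8 letters. The lin-4 match of 7 letters, CTCAGGG, added after the values were seen, was in 37 UTRs, or 0.22%, and left the lin-14 count at 3. The lin-14 UTR held 4 let-7 and 3 lin-4 matches, and the hbl-1 UTR held 4 let-7 matches. These UTRs were 1604 and 1394 nt long, against a median of 129 nt over all UTRs, so they have more room for matches and the shares over all UTRs are not a like comparison. A further let-7 match of lin-14 lay under a pooled region of rank 5091, which ranked 632 in replicate 1 and had no replicate 2 region over the match. One hbl-1 match lay under a pooled region of rank 8958. Such matches act in the RNA, and their overlap with ChIP-seq regions was not tested.

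Among the other 3′ UTRs, that of lin-28 had 1 match of each kind, and that of lin-41 had no match to CTACCTC. The known let-7 sites of lin-41 pair imperfectly in the seed. The puf-9 UTR had no match to CTACCTC either.

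LIN-41 is a TRIM-family RNA-binding protein and the main target of let-7. The gene, WBGene00003026, spans chrI:9334800-9342496 on the minus strand. Its best rank was 2503 in the pooled list, 1924 in replicate 1 and 1629 in replicate 2. The pooled region had a signal of 18.1, the replicate 1 region 9.31 and the replicate 2 region 14.8. The replicate 2 region lay 1504 bp upstream of the start and the other 2 lay past the end of the gene, so the replicates again did not share their strongest region. The pooled region was also in the window of the microRNA gene mir-79, with its summit 1379 bp downstream of the mir-79 start. A region of rank 832 lay 1840 bp beyond the downstream edge.

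LIN-28 is an RNA-binding protein that blocks the processing of let-7. The gene, WBGene00003014, spans chrI:8407630-8410804 on the minus strand. Its best rank was 7691 in the pooled list, 7974 in replicate 1 and 17613 in replicate 2, with signals of 14.2, 6.63 and 8.18. These were the lowest pooled and replicate ranks of the 10 genes.

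Set beside all genes, the final-peak count of the 10 was 1 of 5 for protein-coding genes, against 1.54% of all protein-coding genes, and 2 of 5 for microRNA genes, against 3.85% of all microRNA genes. The 2 microRNA genes share a single peak, and the genes were chosen from these ranks, so nothing is read from the counts. All 10 had a region in the pooled list and in both replicate lists, where the background was 65.2% of protein-coding and 76.9% of microRNA genes. Such regions were thus common among genes of both kinds.

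Of all protein-coding genes, 9.67% had a better best pooled rank than hbl-1, 10.6% than lin-14, 17% than lin-41 and 41.8% than lin-28. Of all microRNA genes, 2.31% ranked better than mir-48 and mir-241, 16.2% than let-7 and 31.2% than lin-4. The shares thus ran from 0.17% at puf-9 to 48.1% at mir-84, and no gene stood below the middle of its kind. The genes were chosen by these ranks, so nothing is read from this.

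**Figure D3:**
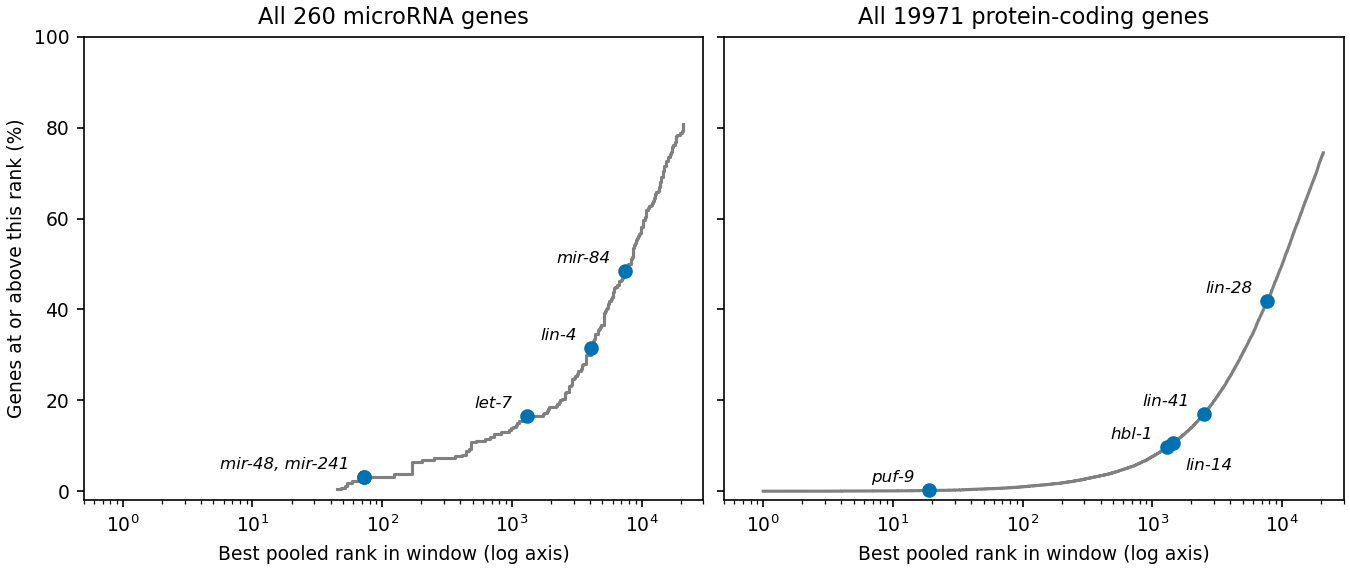
Best pooled rank in the window (log axis) against the percent of genes at or above that rank (linear axis from 0), for all 260 microRNA genes on the left and all 19971 protein-coding genes on the right; the grey line is every gene with a pooled region and blue points are the 10 genes. The points run from the strong end of each curve, at puf-9 and at mir-48 and mir-241, to its middle at lin-28 and mir-84.

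The windows of the 10 genes held 47 distinct pooled regions. Of these 47, 2 were in the final set, against 162 of all 20876 pooled regions. Another 6 ranked no lower than 2000 and 39 ranked lower, in a list of 20876. The genes were chosen by these ranks, so nothing is read from these counts. The strongest of the 47 regions outside the final set ranked 1309, with a signal of 20.3 and a q value of 0.388. That rank depends on the window edges, since regions of rank 832 and 878 lay just beyond the windows of lin-41 and hbl-1. The final set itself ended at a signal of 32.8. The median best pooled rank was 1380.5 over the 10 genes, 6515.5 over the protein-coding genes with a pooled region and 5475 over such microRNA genes. The median windows were 7785.5 bp, 6006 bp and 7095.5 bp, and a longer window has room for more regions.

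Region density was also described per length. The 5 microRNA genes had 6.74 pooled regions per 10 kb of window, against 2.84 over all microRNA genes, with regions in overlapping windows counted once per gene. With each region and base counted once the 5 genes had 18 regions, or 5.67 per 10 kb, and let-7, mir-84 and lin-4 alone had 9, or 3.93 per 10 kb. No value counted in this way was obtained over all microRNA genes. The 5 protein-coding genes had 4.74, against 2.24 over all protein-coding genes. Among the 10, the range was from 2.29 at let-7 to 12.7 at mir-48, and the latter window overlaps that of mir-241. Of the 47 summits, 23 were outside protein-coding genes, or 48.9% against 39.4% of all pooled summits. Introns held 15, or 31.9% against 35.5%. Coding exons held 6, or 12.8% against 19.0%, and untranslated exons 3, or 6.38% against 6.09%. The classes use protein-coding genes only.

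More of the 47 regions overlapped one replicate alone than both, and the same was true over all pooled regions. In all, 9 overlapped replicate 1 alone, 16 replicate 2 alone and 2 neither. Over all 20876 pooled regions these counts were 3908, 8359 and 984. The other 20 of the 47 overlapped a region of both replicates, or 42.6% against 36.5% of all pooled regions. Overlap with replicate 1 was found for 29 and with replicate 2 for 36, which were 61.7% and 76.6%, against 55.2% and 76.6% of all pooled regions. The strongest regions of the replicates overlapped each other at 3 of the 10 genes, mir-48, mir-241 and puf-9, of which the first 2 share a single peak. These are the genes with a final peak. The final set was filtered on reproducibility between the replicates, so overlap at these genes follows largely from that filter. Among all genes with a region in each list, the strongest regions overlapped for 18.6% of protein-coding and 17.4% of microRNA genes. This measure was chosen after the values had been seen. At the other 7 genes the replicates had their strongest regions at different places.

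**Figure D4:**
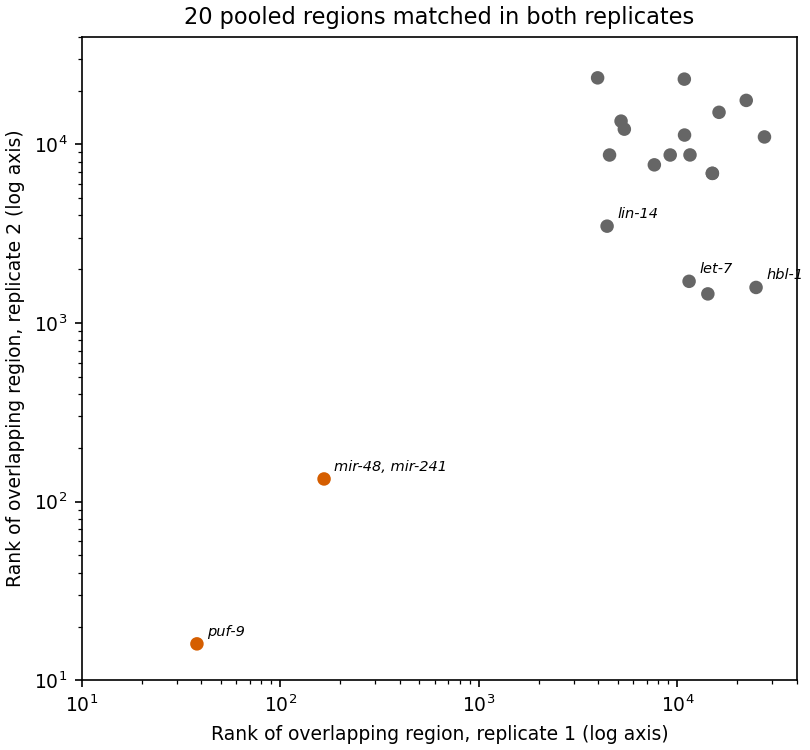
Ranks in replicate 1 and replicate 2 (both log axes) of the 20 pooled regions that overlapped a region of each replicate, taking the replicate region with the nearest summit; orange points are in the final set, grey points are not, and 2 regions that overlap the same replicate regions fall on a single point. The puf-9 peak at ranks 38 and 16 and the mir-48 and mir-241 peak at 166 and 134 stand apart from the other points, which lie beyond rank 1000 in both replicates.

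Other genes of the pathway were counted in the same windows. None of 17 further heterochronic genes had a final peak, where the background of 1.54% of protein-coding genes leads to few or none in a list of this size. Of the 17, 16 had a region in all 3 lists, against 65.2% of all protein-coding genes. Their median best pooled rank was 1109.5. Their windows ran from 4930 bp to 26467 bp, against a median of 6006 bp over protein-coding genes, and a longer window has room for more regions. The best ranked were lep-5, a non-coding RNA gene, at 415, mab-10, which encodes a partner of LIN-29, at 592, and dre-1, which encodes an F-box protein, at 619. The 10 genes of microRNA processing and function also had no final peak, with a median of 5329. Of these 10, 9 had a region in all 3 lists, against the same 65.2%. Of these, nhl-2, which encodes a TRIM-family cofactor of the microRNA complex, was the best ranked at 207, with ranks 510 and 541 in the replicates, followed by xrn-2 at 1877 and ain-1 at 2111. No region was found in any list at pup-2, and none in the pooled list at lin-46.

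Of 5 related microRNAs, mir-237, mir-793, mir-794, mir-795 and mir-1821, none had a final peak, and the background of 3.85% likewise leads to few or none in so short a list. All 5 had a region in the 3 lists, against 76.9% of all microRNA genes, with a median best pooled rank of 8368. The best pooled region of mir-794 and mir-795, at rank 12741, is the same region and counts for both. The best ranked were mir-793 at 956 and mir-237 at 1865, and mir-1821 was at 8368. A final peak in the window was found for 8 other microRNA genes outside the family, among them mir-2221 at rank 45, mir-2216 at 48, mir-354 at 52 and mir-52 at 59.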

How the data were processed

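The assay was ChIP-seq for tagged NHR-28 in whole L3 larvae, with 2 biological replicates, per the labels. The authors called peaks and background regions per replicate and on pooled reads, and the final set was filtered by IDR, per the deposited files' own list. Which aligner, caller and IDR cut-off they used is not given in the sources used here. Every region has a signal and a −log10 of its q value as the authors deposited them; the scale of the signal is not stated. Widths were 340 or 350 bp, and the summit was the middle of every region.

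The 4 lists of build ce11 were ranked by signal and joined to genes of the RefSeq annotation of WBcel235, the same assembly, with an overlap of at least 1 bp. Coordinates count from base 1, and Python 3.11.15, pandas 2.3.3, numpy 2.4.6 and matplotlib 3.10.9 were used. The q value was used for description and as another ranking. Windows were checked on simulated regions: 200 of 200 planted inside were found, and 0 of 200 just outside. All 10 genes were named, with up to 3 genes of each of 3 other lists and the nearest genes in rank of puf-9 and mir-241. The members and lists were chosen with earlier results of these data known. Depth is unknown, there is 1 group, and no test between groups was possible. Alternatives were narrower, longer and promoter windows, summit position, stricter lists, ranking by q value and each replicate left out.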

Additional observations from a re-analysis of the deposited data

How the results depend on the processing

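Windows from 1000 bp upstream to 500 bp downstream of the gene start are shorter than those used. With them 5 of the 10 genes had a region in all 3 lists, and 5 pooled regions were matched in both replicates. The median best pooled rank was 2510.5, taken only over genes with a pooled region in that window. Without one were let-7, lin-41, lin-14 and lin-28, so this median and that of 1380.5 cover different genes. With 1000 bp on either side, mir-48 lost the final peak, which left 2 genes with one, and its best pooled rank was 1759. Replacing the pooled list by each replicate in turn gave a median best rank of 478 to 1605, where replicate 1 gave the lower value. The pooled value was 1380.5, but it comes from a list of 20876 regions and not of 30000, so these medians show no change in strength. Requiring a match in one replicate gave 29 to 36 regions, against 20 for both. By construction this asks for less. With either replicate left out, 3 genes were among the 162 strongest nuclear regions, and these were mir-48, mir-241 and puf-9 each time. These are the genes with a final peak, and the final set was filtered on reproducibility between the replicates. A high rank in each replicate was therefore largely fixed in advance, and nothing is read from it. Of 28 values of the 4 counts and medians under other settings, 23 stayed within the limits set for no change. For counts the limit was a ratio of 1.5, so the fall from 3 to 2 genes with a final peak was within it. For the median rank the limit was 797 ranks, the standard deviation of the 2 replicate medians. The medians with a replicate left out were thus judged against a limit made from those same values. Of 66 best pooled ranks of single genes under other settings, 19 moved, by a limit set likewise from the 2 replicate ranks of each gene. That limit is wider where the replicates differ, so the number that moved does not measure stability. Ranking by q value moved mir-48, mir-241 and puf-9 to rank 1, because 85 pooled regions tied at the smallest q value. With replicate 1 left out 6 of the 10 genes moved, and likewise with replicate 2 left out, with ranks from lists of 30000 regions. No paired analysis was possible because there is 1 group. Depth is unknown, so weak regions cannot be weighed by reads, and no difference between the 2 replicates can be assigned to depth or to the animals.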
